A study of Mus musculus with 4 samples.

Results

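The mitochondrial solute carriers are the genes of the Slc25a family, taken here as every row of the 4 library tables whose symbol is Slc25a followed by a number. The rule found 47 genes of 24421 in the tables. It uses symbols alone, but the family was chosen with earlier results of these data known. The libraries were made from total RNA of mouse brain cells, 2 libraries labelled excitatory and 2 labelled inhibitory. The excitatory libraries hold cells positive for αCaMKII, from αCaMKII-Cre mice, in which the promoter of a kinase gene of glutamatergic forebrain neurons drives Cre recombinase. The inhibitory libraries hold vGAT-positive cells, from vGAT-IRES-Cre mice, in which Cre is made by cells that use the transporter loading GABA into synaptic vesicles. Male mice of 3 to 5 months were used, from colonies kept by crossing to wild-type C57Bl/6J mice. The labels name no treatment for either group. Each library was made from 100 fluorescent cells picked by hand with a glass pipette. The reporter, the brain region and the animals behind each library are not named in the sources used here. Each p-value therefore weighs only how far these 4 libraries scatter, and that scatter may be technical.

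Most Slc25 proteins sit in the inner membrane of mitochondria and carry nucleotides, phosphate, amino acids, carboxylic acids, cofactors and metal ions between cytosol and matrix. They are built from tandem repeats of paired membrane helices, and they are made in the cytosol and imported through the TOM and TIM22 complexes. In brain they feed oxidative phosphorylation, move reducing equivalents in the malate-aspartate shuttle, and supply or clear the glutamate that neurons and astrocytes exchange.

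A deposited value is log2(scaled reads + 1), and a difference is excitatory minus inhibitory on that scale. Libraries held 12609 to 12798 genes above 0, at an estimated depth of 61800000 to 74200000 reads. The largest value was 21.331 in all 4 libraries and belonged to Mbp, a myelin gene. Over the 13619 genes tested the median difference was 0.52, so every count below is also given after median-of-ratios scaling of the libraries, which brings that median to -0.006 and is called scaled. Markers did not separate the labels cleanly. The vGAT gene Slc32a1 had a listed value of 0 throughout, Camk2a was 16.53 and 16.46 (excitatory) against 15.60 and 15.66 (inhibitory), and Slc17a7, a vesicular glutamate transporter gene, was 12.19 and 12.06 against 11.99 and 11.67. Gad1 and Gad2, which encode the GABA-synthesizing enzymes, were between 9.73 and 11.17 in the excitatory and between 10.13 and 11.59 in the inhibitory libraries. Both words are used below as library labels only.

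Glial transcripts were plentiful under both labels. As a share of all scaled reads, 10 astrocyte markers summed to 26300 and 26900 per 1000000 with the excitatory label against 24200 and 22400 with the inhibitory one, and 8 oligodendrocyte markers to 37200 and 37800 against 51300 and 50400. The 10 microglia markers summed to 818 and 894 per 1000000 with the excitatory label against 3130 and 2600 with the inhibitory one. Of these, 0 were called higher in the excitatory libraries and 5 lower (0 and 8 scaled). The 10 astrocyte markers had 7 higher and 0 lower calls (4 and 2 scaled), and the 8 oligodendrocyte markers 5 and 0 (5 and 2 scaled). Over all genes tested 45% were called higher and 26.8% lower (32.4% and 33.5% scaled). None of these glial markers was at 0 in all libraries, whereas 4 of 6 endothelial markers (Cldn5, Kdr, Tek and Ly6c1) were. Their part in the results on the carriers was not tested, and in bulk RNA fewer cells of a type and less RNA per cell cannot be told apart. Strand-specific counting is not stated in the sources used here, and 12 carriers share exon sequence with a gene on the opposite strand.

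Promoter sequences from RefSeq on GRCm38.p6 were found for 36 of the 47 carriers, each spanning 250 bases before to 50 after the gene start. Shown are those of the phosphate carrier gene Slc25a3 and the ADP/ATP carrier gene Slc25a5, which were among the most abundant, and of Slc25a16 and Slc25a30, which had the largest differences in either direction. Capitals mark matches, on either strand, to the core of nuclear respiratory factor 1 (GCGC, any 2 bases, then GCGC), a regulator of nuclear genes for mitochondria, or to the ETS core (CCGGAAG). Each motif was searched on its own, and the matches shown do not overlap.
Slc25a3, chr10:91123918-91124217, minus strand: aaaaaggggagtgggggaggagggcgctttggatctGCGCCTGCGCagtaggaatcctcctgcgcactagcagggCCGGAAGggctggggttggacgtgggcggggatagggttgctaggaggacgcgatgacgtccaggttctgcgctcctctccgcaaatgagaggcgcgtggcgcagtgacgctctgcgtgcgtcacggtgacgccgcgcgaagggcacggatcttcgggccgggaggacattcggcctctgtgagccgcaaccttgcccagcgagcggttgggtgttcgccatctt
Slc25a5, chrX:36795347-36795646, plus strand: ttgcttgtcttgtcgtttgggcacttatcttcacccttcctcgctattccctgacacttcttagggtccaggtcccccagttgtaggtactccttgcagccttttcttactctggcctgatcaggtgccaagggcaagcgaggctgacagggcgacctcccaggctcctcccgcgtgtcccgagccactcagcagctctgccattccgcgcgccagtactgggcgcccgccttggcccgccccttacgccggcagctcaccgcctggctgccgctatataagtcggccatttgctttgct
Slc25a16, chr10:62920383-62920682, plus strand: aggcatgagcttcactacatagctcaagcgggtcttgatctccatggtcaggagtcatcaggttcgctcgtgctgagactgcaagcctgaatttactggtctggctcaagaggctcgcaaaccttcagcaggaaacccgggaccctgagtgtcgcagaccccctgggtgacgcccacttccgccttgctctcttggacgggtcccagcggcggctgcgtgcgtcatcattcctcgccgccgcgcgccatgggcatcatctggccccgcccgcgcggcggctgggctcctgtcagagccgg
Slc25a30, chr14:75786988-75787287, minus strand: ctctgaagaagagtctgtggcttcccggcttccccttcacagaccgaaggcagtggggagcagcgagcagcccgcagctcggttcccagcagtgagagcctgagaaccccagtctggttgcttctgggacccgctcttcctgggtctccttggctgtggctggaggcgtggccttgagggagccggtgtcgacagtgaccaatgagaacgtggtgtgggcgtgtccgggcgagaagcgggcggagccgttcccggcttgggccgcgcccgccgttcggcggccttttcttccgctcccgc

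In the windows shown, Slc25a3 held 1 match to each motif and the others held none. The ETS core stood in 7 of the 36 carriers (19.4%), against 9.93% of 27025 genes with a window, and the NRF1 core in 3 of 36 (8.33%), against 7%. The carriers' windows had a median of 18.5 CG dinucleotides, against 8 over all genes, and both motifs contain CG. Slc25a30 and Slc25a16 had 25 and 24 CG dinucleotides.

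Of the 47 carriers, 35 passed the filter on low values and 12 were listed at 0 in all 4 libraries. The test called 20 of the 35 higher in the excitatory libraries and 9 lower, while 6 did not pass. Over all genes tested 71.8% were called (45% higher and 26.8% lower), so a call for 82.9% of the carriers is read against a high background. After scaling 11 carriers were called higher and 10 lower, which is 60% of the tested carriers, against 65.9% of all genes (32.4% higher and 33.5% lower). In both scalings 20 of the 35 carriers had the same call, 11 higher and 9 lower, beside 8070 of the 13619 genes tested. The median difference of the tested carriers was 0.57, against 0.52 over all genes, and 0.03 scaled, against -0.006. Among the 28 carriers above 0 in all 4 libraries it was 0.60, against 0.54 over all such genes. The groups did not overlap for 32 of the 35 (91.4%), against 86.4% of all genes tested, and 23 of those were higher in the excitatory libraries, a pattern that 54.6% of all genes tested had. Differences of at least 2 were found for 14 of the 35 (40%), against 44.4% of all genes. Carriers at 0 in both libraries of a single label and above 0 in both of the other numbered 6 (17.1%), against 15.5% of all genes tested.

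**Figure D1:**
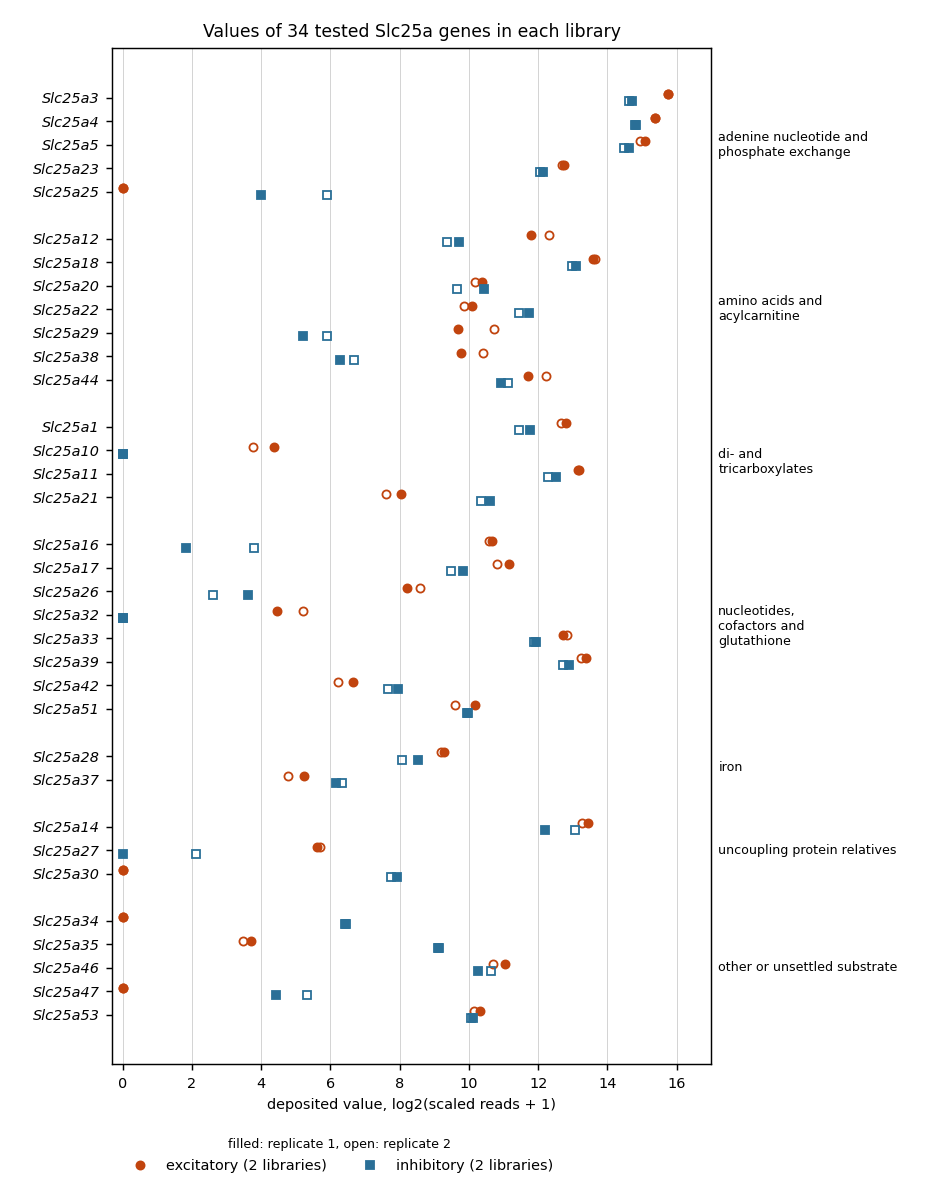
Deposited values, as log2(scaled reads + 1), of 34 tested carriers in each library, in groups by substrate; circles are the 2 excitatory and squares the 2 inhibitory libraries. Values compare libraries for a gene and are not divided by gene length; 6 carriers were at 0 in both libraries of 1 label.

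Each library was also left out in turn. Such a fit sets 1 library against 2, with 1 residual degree of freedom, and assumes that the lone library varies like the others, so a call can be lost with little change in the difference. The median difference of the carriers was 0.58 to 0.61 in these fits, against 0.57 with all libraries. Without excitatory replicate 1 the counts were 10 higher and 6 lower, without excitatory replicate 2 they were 8 and 5, and without either inhibitory replicate they were 14 and 7. In the deposited values 11 of 29 calls held whichever library was left out, and 18 carriers lost theirs in at least 1 fit. In all 46 such losses the difference kept its direction, and it moved by a median of 0.09 and by at most 0.34 (Slc25a29). The losses named below are of the deposited calls unless a scaled call is named, and are values of the adjusted p. After scaling 7 of 21 did, and every other scaled call was lost without at least 1 library. Those that held were Slc25a10 and Slc25a32, higher in the excitatory libraries, and Slc25a21, Slc25a30, Slc25a34, Slc25a35 and Slc25a47, lower. Of those 7, only Slc25a21 and Slc25a35 were above 0 in all 4 libraries. The other calls were of carriers at 0 in both libraries of 1 label. Leaving out a library of the other label then leaves 2 values of 0 as the only scatter. A call that holds in such a fit is no sign of its strength. How many calls held whichever library was left out was not counted over all genes. The carriers' counts of held and lost calls are therefore not read as a trait of the family. The ranges over all genes in the same fits are given in the closing section.

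**Figure D2:**
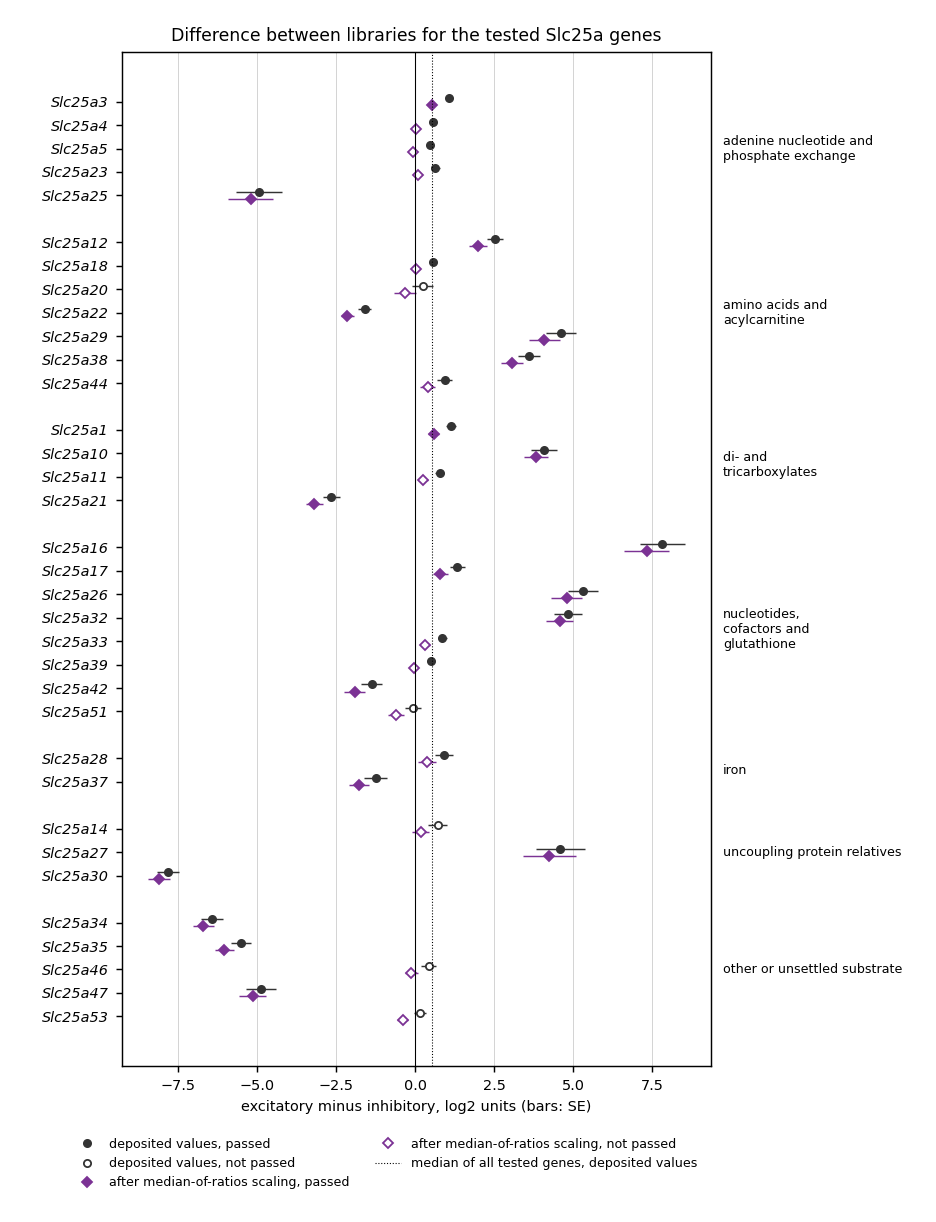
Excitatory minus inhibitory difference of 34 tested carriers in log2 units, with bars for the SE, in the deposited values (circles) and after scaling (diamonds); filled symbols passed limma's test. Most abundant carriers lie near the dotted line, the median of all genes at 0.52, and differences of carriers at 0 in both libraries of a label are fitted values, not folds.

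Carriers of adenine nucleotides and phosphate supply the substrates of ATP synthase and export its product. Of 8, 5 were tested, 4 were higher in the excitatory libraries and 1 was lower, and after scaling 1 was higher and 1 lower. Over all genes tested 45% were higher and 26.8% lower, and 32.4% and 33.5% after scaling. Slc25a3, which imports phosphate, had 15.75 and 15.74 (excitatory) against 14.72 and 14.63 (inhibitory). This was a 2.1-fold difference (1.07, SE 0.072, limma adjusted p = 0.000289) and a 1.44-fold difference scaled (adjusted p = 0.00696), where it was lost without excitatory replicate 1 (0.106) or 2 (0.122). Slc25a3 was the only carrier of this group called higher in both scalings.

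Slc25a4, the ADP/ATP carrier of muscle and brain, had 15.36 and 15.38 (excitatory) against 14.81 and 14.79 (inhibitory; 0.57, SE 0.068, limma adjusted p = 0.00167). Its paralog Slc25a5 had 15.07 and 14.95 against 14.61 and 14.48 (0.47, SE 0.095, adjusted p = 0.00999), a call lost whichever library was left out (0.0686 to 0.107). Neither passed after scaling: the scaled differences were 0.03 (adjusted p = 0.803) and -0.08 (0.564), so the direction of Slc25a5 flipped. A pseudogene named after Slc25a5 is annotated, and reads of such copies may be split. Slc25a23, a calcium-regulated carrier of ATP-Mg and phosphate, had 12.75 and 12.70 against 12.14 and 12.04 (0.64, SE 0.13, adjusted p = 0.00905; scaled 0.09, adjusted p = 0.567), which was lost without excitatory replicate 1 (0.0604) or 2 (0.0564).

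Slc25a25, another ATP-Mg/phosphate carrier gene, was listed at 0 under the excitatory label and reached 3.98 and 5.89 under the inhibitory one (limma adjusted p = 0.0033, scaled 0.00328). The call was lost without excitatory replicate 1 (0.113) or 2 (0.112), and Phldb2 had the same 4 values. Naif1, which overlaps 379 bases of its exons on the opposite strand, showed the reverse, with 6.15 and 5.62 in the excitatory libraries and 0 in both inhibitory ones. Slc25a24, Slc25a41 and the germ-cell ADP/ATP carrier gene Slc25a31 were listed at 0 in all 4 libraries.

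Among 12 carriers of amino acids and acylcarnitine, 7 were tested, 5 were higher and 1 was lower in the excitatory libraries, and after scaling 3 and 1. The shares over all genes tested were 45% and 26.8%, and 32.4% and 33.5% scaled. Slc25a12, the aspartate/glutamate carrier of the malate-aspartate shuttle in brain and muscle, had 11.80 and 12.30 (excitatory) against 9.70 and 9.37 (inhibitory). The difference was 5.73-fold (2.52, SE 0.26, limma adjusted p = 0.000973) and 3.94-fold scaled (adjusted p = 0.00387). The deposited call was lost without inhibitory replicate 2 (2.35, adjusted p = 0.0527), and the scaled call whichever library was left out (0.0554 to 0.0928). Slc25a13, its paralog in liver, was listed at 0 throughout. The brain form of this shuttle carrier was therefore the only one above 0, and it was higher under the excitatory label.

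The carriers that move glutamate with protons were called in different directions in the deposited values only. Slc25a22, whose mutation in people causes early epilepsy, had 10.09 and 9.87 (excitatory) against 11.72 and 11.45 (inhibitory; -1.60, SE 0.20, limma adjusted p = 0.00188; scaled -2.15, 0.00105). Its call was lost without excitatory replicate 2 (0.0521). Slc25a18, the form found mainly in astrocytes of the brain, had 13.58 and 13.63 against 13.10 and 12.98 (0.57, SE 0.11, adjusted p = 0.0082), which was lost without excitatory replicate 1 (0.0657) or 2 (0.0726), and the scaled difference was 0.02 (0.886). Slc25a22 thus was lower in the excitatory libraries while Slc25a18, called higher in the deposited values, did not pass after scaling. Astrocyte markers, given above, were plentiful under both labels, and their part was not tested.

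Slc25a29 and Slc25a38 had the largest differences of this group. Slc25a29, a carrier of basic amino acids, had 9.67 and 10.71 (excitatory) against 5.22 and 5.91 (inhibitory; 4.62, SE 0.48, limma adjusted p = 0.00108; scaled 4.08, 0.00221). That call was lost without inhibitory replicate 1 (0.0626) or 2 (0.0528). Slc25a38, which brings glycine into mitochondria for heme synthesis, had 9.77 and 10.40 against 6.27 and 6.69 (3.61, SE 0.35, adjusted p = 0.000816), and its scaled difference of 3.07 (0.00182) was lost without inhibitory replicate 1 (0.0684) or 2 (0.0618). Neither gene's libraries overlapped between the labels.

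Slc25a44, a carrier of branched-chain amino acids, had 11.70 and 12.22 (excitatory) against 10.93 and 11.13 (inhibitory; 0.93, SE 0.23, limma adjusted p = 0.0194; scaled 0.39, 0.222). The call held without excitatory replicate 1 and was lost without excitatory replicate 2 (0.0933), inhibitory replicate 1 (0.195) or 2 (0.149). Slc25a20, the carnitine/acylcarnitine carrier of fatty acid oxidation, overlapped between the labels with 10.38 and 10.16 against 10.42 and 9.66. The ornithine carrier genes Slc25a15 and Slc25a2, and Slc25a45 and Slc25a48, were listed at 0 throughout.

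All 4 carriers of di- and tricarboxylates were tested, 3 were higher and 1 was lower in the excitatory libraries, and 2 and 1 after scaling. Beside them stand 45% higher and 26.8% lower of all genes tested, and 32.4% and 33.5% scaled. Slc25a1, which exports citrate for fatty acid synthesis, had 12.81 and 12.65 (excitatory) against 11.76 and 11.45 (inhibitory; 1.13, SE 0.17, limma adjusted p = 0.00377; scaled 0.58, 0.0457), lost without excitatory replicate 1 (0.088) or 2 (0.0739). Slc25a11, which exchanges oxoglutarate for malate in the malate-aspartate shuttle, had 13.18 and 13.16 against 12.52 and 12.27 (0.78, SE 0.14, adjusted p = 0.00633; scaled 0.24, 0.247), which was lost without excitatory replicate 1 (0.0969) or 2 (0.0938). Of the shuttle's carriers, Slc25a12 was thus called higher in both scalings and Slc25a11 only in the deposited values, and the difference between these genes was not tested.

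Slc25a21, a carrier of oxoadipate from lysine and tryptophan breakdown, went the other way. It had 8.04 and 7.60 (excitatory) against 10.61 and 10.35 (inhibitory), a 6.31-fold difference (-2.66, SE 0.27, limma adjusted p = 0.000992; scaled -3.20, 0.000701) that held whichever library was left out (0.0292 to 0.0495). Pax9, which overlaps 189 bases of its exons on the opposite strand, was at 0.36 or below in every library. Slc25a10, the dicarboxylate carrier, had 4.36 and 3.75 under the excitatory label and was listed at 0 under the inhibitory one (adjusted p = 0.000948, scaled 0.00125), with the same 4 values as Slc12a9.

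The largest difference of any carrier towards the excitatory libraries was among those of nucleotides and cofactors. Of 11, 9 were tested, 6 were higher and 1 was lower, and after scaling 4 were higher and 2 lower. Across all genes tested 45% were higher and 26.8% lower, and 32.4% and 33.5% scaled. Slc25a16, linked to the import of coenzyme A, had 10.67 and 10.58 (excitatory) against 1.83 and 3.80 (inhibitory; 7.81, SE 0.71, limma adjusted p = 0.000706; scaled 7.32, 0.00117). Without excitatory replicate 1 the difference was 7.77 and without replicate 2 it was 7.86, at adjusted p of 0.0693 and 0.0684 in these smaller fits. Slc25a42, which exchanges coenzyme A for adenine nucleotides, had 6.66 and 6.21 against 7.95 and 7.67 (-1.38, SE 0.33, adjusted p = 0.0165; scaled -1.92, 0.00644), and was lost whichever library was left out (0.0672 to 0.131). These carriers of coenzyme A were called in opposite directions.

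Slc25a26, which imports S-adenosylmethionine, the methyl donor, had 8.22 and 8.60 (excitatory) against 3.61 and 2.61 (inhibitory; 5.31, SE 0.47, limma adjusted p = 0.000647; scaled 4.79, 0.00143), lost without excitatory replicate 2 (0.0532). Lrig1, on the opposite strand with 144 bases of shared exon, had 9.19 and 8.82 against 4.61 and 5.01. Slc25a32, a carrier of folate or flavin adenine dinucleotide, had 4.46 and 5.20 under the excitatory label and was listed at 0 under the inhibitory one (adjusted p = 0.000657, scaled 0.00103). Slc25a17, a peroxisomal member of the family, had 11.15 and 10.81 against 9.82 and 9.48 (1.33, SE 0.24, adjusted p = 0.00658; scaled 0.79, 0.0423), a call lost whichever library was left out (0.063 to 0.0908). All 3 carriers were higher in the excitatory libraries in both scalings.

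Other carriers of this group had smaller differences. Slc25a33, a pyrimidine nucleotide carrier, had 12.71 and 12.83 (excitatory) against 11.94 and 11.88 (inhibitory; 0.86, SE 0.13, limma adjusted p = 0.00351; scaled 0.32, 0.109). Slc25a39, a carrier of glutathione, had 13.38 and 13.24 against 12.90 and 12.71 (0.50, SE 0.13, adjusted p = 0.0226), was lost whichever library was left out (0.0693 to 0.147), and its scaled difference of -0.04 (0.83) flipped. Slc25a51, the carrier of nicotinamide adenine dinucleotide, overlapped with 10.17 and 9.61 against 9.95 and 9.96. Slc25a36 and Slc25a40, paralogs of Slc25a33 and Slc25a39, were listed at 0 throughout.

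Both mitoferrins, which import iron for heme and iron-sulfur clusters, were tested and were called in opposite directions in the deposited values only. Slc25a28 had 9.27 and 9.18 (excitatory) against 8.54 and 8.07 (inhibitory; 0.92, SE 0.28, limma adjusted p = 0.0346; scaled 0.38, 0.302). Slc25a37, the form needed most by developing red cells, had 5.23 and 4.76 against 6.16 and 6.34 (-1.25, SE 0.36, adjusted p = 0.0291; scaled -1.78, 0.00924). Each deposited call was lost whichever library was left out, with adjusted p of 0.0571 to 0.191 for Slc25a28 and 0.0573 to 0.13 for Slc25a37.

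The 3 relatives of the uncoupling proteins differed in their calls. Slc25a30 was listed at 0 under the excitatory label and reached 7.92 and 7.74 under the inhibitory one (limma adjusted p = 0.000107, scaled 0.000131). Its call held whichever library was left out, but without an inhibitory replicate the only scatter was between excitatory values of 0. Slc25a27, a neuronal form, had 5.62 and 5.69 (excitatory) against 0 and 2.12 (inhibitory; 4.59, SE 0.78, adjusted p = 0.00546; scaled 4.24, 0.0112) and was lost without excitatory replicate 1 (0.138) or 2 (0.139). Slc25a14 had 13.44 and 13.26 against 12.21 and 13.06 and did not pass (0.71, adjusted p = 0.094), its inhibitory libraries lying far apart. Without inhibitory replicate 2 it did pass (1.14, adjusted p = 0.0429). The lowly measured relatives were separated by label, in opposite directions, and the abundant one was not called.

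Of the 7 members with an unsettled or other role, 5 were tested. In both scalings none was higher and 3 were lower in the excitatory libraries. The background over all genes tested was 45% higher and 26.8% lower, and 32.4% and 33.5% scaled. Slc25a34 was listed at 0 under the excitatory label and reached 6.42 and 6.46 under the inhibitory one (limma adjusted p = 0.000161, scaled 0.000175). Slc25a35 had 3.70 and 3.47 (excitatory) against 9.12 and 9.10 (inhibitory; -5.52, SE 0.31, adjusted p = 0.000172; scaled -6.04, 0.000171). Its exons share 1151 bases (31.3%) with Rangrf on the opposite strand, which had 12.52 and 12.84 against 12.56 and 12.65 and overlapped between the labels. Slc25a47, a carrier known from liver, was listed at 0 under the excitatory label and reached 4.43 and 5.33 under the inhibitory one (adjusted p = 0.00078, scaled 0.00073). The calls of these 3 genes held whichever library was left out. For Slc25a34 and Slc25a47, however, the fits without an inhibitory replicate had only excitatory values of 0 for scatter.

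Slc25a47 and Slc25a29 are neighbours on chromosome 12 of mm10, transcribed away from each other with 162 bases between them, and they were called in opposite directions. Slc25a29 spans positions 108825873 to 108835883 and Slc25a47 positions 108836046 to 108856815. Slc25a46, an outer membrane protein of mitochondrial dynamics, had 11.03 and 10.69 (excitatory) against 10.25 and 10.63 (inhibitory) and did not pass (0.42, limma adjusted p = 0.178; scaled -0.12, 0.641). Slc25a53 had 10.32 and 10.14 against 10.12 and 10.06 and did not pass either (0.14, adjusted p = 0.538; scaled -0.40, 0.121). Slc25a43 and Slc25a54 were listed at 0 throughout.

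Divided by annotated exon length and expressed per 1000000 of all such values, the family summed to 2910 and 2950 with the excitatory label against 2950 and 2800 with the inhibitory one. Slc25a5, Slc25a4 and Slc25a3 made up 57.2% and 56.6% of that sum in the excitatory and 57.4% and 55.6% in the inhibitory libraries. The 4 members with the highest mean level were Slc25a5 (725 per 1000000), Slc25a4 (628), Slc25a3 (294) and Slc25a18 (228). Slc25a5 ranked 1 and Slc25a4 ranked 2 in every library. Slc25a12 ranked 14 and 13 with the excitatory label against 21 and 21 with the inhibitory one, and Slc25a22 ranked 21 and 20 against 12 and 13. The first 2 places were thus the same under both labels. Slc25a3 ranked 3 in every library except inhibitory replicate 2, where it ranked 4. Carriers of middle level changed places, and the family's sums overlapped between the labels.

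**Figure D3:**
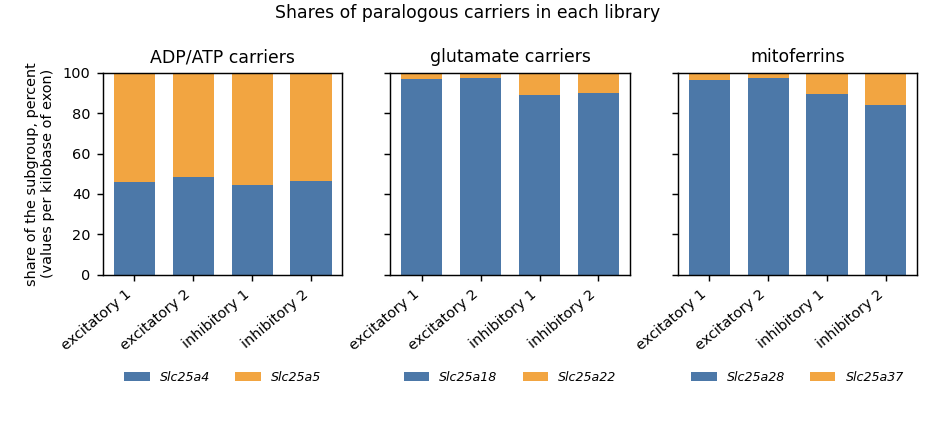
Share, in percent, of each paralog in the summed value per kilobase of exon of its subgroup, in each of the 4 libraries. Slc25a5 holds 51.4% to 55.4% of the ADP/ATP carriers, while Slc25a22 and Slc25a37 have larger shares in the inhibitory libraries.

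Shares of paralogs within a library do not depend on the scaling between libraries. Slc25a4 held 46.1% and 48.6% of the ADP/ATP carrier level per kilobase in the excitatory and 44.6% and 46.5% in the inhibitory libraries, which overlap. Slc25a22 held 2.75% and 2.3% of the glutamate carrier level with the excitatory label against 10.9% and 9.94% with the inhibitory one. Slc25a37 held 3.56% and 2.73% of the mitoferrin level with the excitatory label against 10.5% and 15.8% with the inhibitory one. The minor paralog thus had the larger share in both inhibitory libraries for glutamate and for iron. No test was run on the shares; an exact permutation test of a single share cannot go below a two-sided p of 0.333 with 2 libraries against 2. Slc25a23 held at least 99.1% of the ATP-Mg/phosphate carriers and Slc25a14 at least 97.5% of the uncoupling protein relatives in every library.

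Other genes of mitochondrial transport were compared as 37 genes in the tables, 35 of them tested, of which 18 were higher (51.4%) and 8 lower (22.9%) in the excitatory libraries, against 45% and 26.8% of all genes tested. After scaling 8 were higher (22.9%) and 9 lower (25.7%), against 32.4% and 33.5%, so the deposited counts were near the background and the scaled ones below it. Without 1 library the higher calls numbered 5 (excitatory replicate 1), 6 (excitatory replicate 2), 11 (inhibitory replicate 1) and 12 (inhibitory replicate 2), and the lower calls 6, 6, 3 and 3. The mitochondrial calcium uniporter, which admits calcium to the matrix, showed wide differences. Its pore gene Mcu had 1.98 and 2.31 (excitatory) against 9.59 and 9.39 (inhibitory; -7.35, SE 0.34, limma adjusted p = 0.000113; scaled -7.82, 0.000137). Ccdc109b, the older symbol of the inhibitory pore subunit Mcub, was listed at 0 under the excitatory label, against 9.75 and 9.41 under the inhibitory one, and the gatekeeper gene Micu2 likewise with 7.09 and 7.81. Of 11 tested uniporter and pyruvate carrier genes, 5 were higher and 3 lower, and after scaling 4 and 3.

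**Figure D4:**
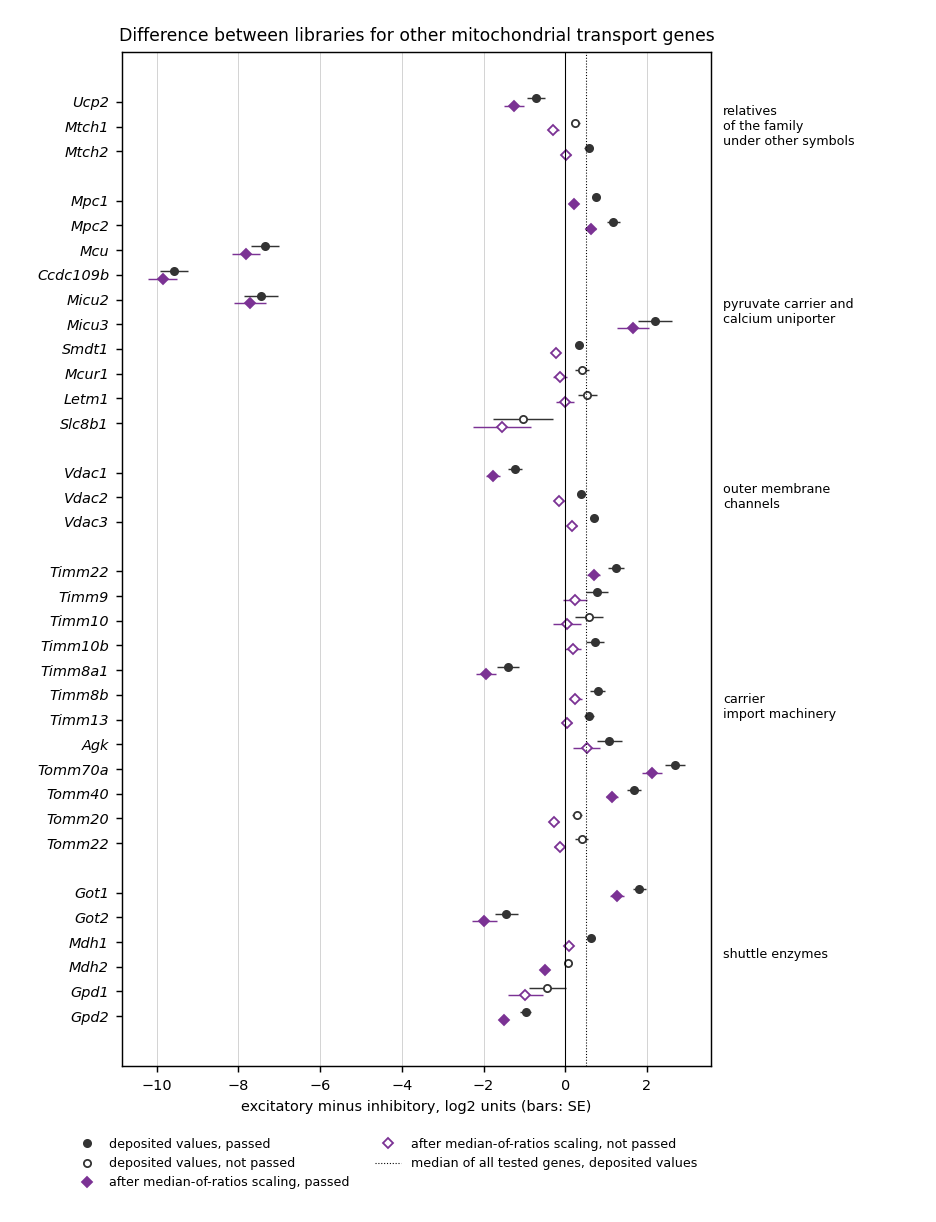
Excitatory minus inhibitory difference in log2 units, with bars for the SE, of 34 tested genes of mitochondrial transport outside the Slc25a symbols, before (circles) and after (diamonds) scaling; filled symbols passed limma's test. Mcu (-7.35) lies far below 0, and Ccdc109b and Micu2 were at 0 in both excitatory libraries.

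Of 12 genes of the machinery that imports carriers, 8 were higher and 1 was lower in the excitatory libraries, and after scaling 3 and 1, beside 45% and 26.8% of all genes tested, and 32.4% and 33.5% scaled. Tomm70a, the receptor that carriers bind on the outer membrane, was 6.39-fold higher (2.68, SE 0.24, limma adjusted p = 0.000668; scaled 2.13, 0.00196), and its scaled call was lost without excitatory replicate 1 (0.0721) or 2 (0.0648). The import pore gene Tomm40 was 3.22-fold higher (1.69, SE 0.17, adjusted p = 0.000979; scaled 1.15, 0.00304), a call that held whichever library was left out in both scalings. Timm22, the channel that inserts carriers into the inner membrane, was 2.36-fold higher (1.24, SE 0.19, adjusted p = 0.00381; scaled 0.70, 0.0179), lost without excitatory replicate 1 (0.114), excitatory replicate 2 (0.0877) or inhibitory replicate 1 (0.0681).

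Among the outer membrane channels, Vdac1 was lower under the excitatory label (-1.22, SE 0.17, limma adjusted p = 0.00259; scaled -1.76, 0.00117), lost without inhibitory replicate 1 (0.0607) or 2 (0.0693). Vdac2 (0.39, adjusted p = 0.0176) and Vdac3 (0.71, 0.00327) were higher in the deposited values only, with scaled differences of -0.15 (0.309) and 0.17 (0.228). Vdac2 was lost without excitatory replicate 1 (0.116), excitatory replicate 2 (0.111) or inhibitory replicate 2 (0.0504), and Vdac3 without inhibitory replicate 1 (0.0691) or 2 (0.0796). Of the 6 shuttle enzymes 2 were higher and 2 lower, and 1 and 3 after scaling. Both lower calls and 1 of the 2 higher ones were the same in both scalings, so the shuttle enzymes were called in both directions. All genes tested had 45% higher and 26.8% lower, and 32.4% and 33.5% scaled. Got1, the cytosolic transaminase of the malate-aspartate shuttle, was 3.5-fold higher (1.81, SE 0.16, adjusted p = 0.000634; scaled 1.27, 0.00295, lost without either inhibitory replicate, 0.0617 and 0.0649), Mdh1 was higher in the deposited values (0.63, 0.00146; scaled 0.09, 0.434), and Gpd2 of the glycerol phosphate shuttle was lower (-0.97, SE 0.13, adjusted p = 0.00216; scaled -1.51, 0.000544). The deposited calls were lost for Mdh1 without excitatory replicate 1 (0.0537) or 2 (0.0535) and for Gpd2 without inhibitory replicate 1 (0.0627) or 2 (0.0623). Among family relatives under other symbols Ucp2 was lower (-0.72, adjusted p = 0.0367; lost whichever library was left out, 0.102 to 0.229), Mtch2 was higher in the deposited values (0.57, 0.00664; scaled 0.03, 0.818; lost without either excitatory replicate, 0.0639 and 0.0681), Mtch1 did not pass (0.25, 0.112), and Ucp1 and Ucp3 were listed at 0 throughout.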

How the data were processed

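RNA of 4 libraries of 100 cells each was analysed from the authors' deposited tables, which hold log2 values, 1 per gene and library, for 24421 genes. TopHat, edgeR and the build mm10 are named in the submitters' processing notes, with no version, role or order; how reads were counted, and on which annotation, is not given in the sources used here. Base 2 and the offset of 1 follow from the values: low values were evenly spaced after back-transformation (spacing varied by 0.209% to 0.661%, against 14.8% to 18.2% with a natural base). The spacing was 1.3 and 1.23 in the excitatory and 0.72 and 0.873 in the inhibitory libraries, so a read carried different weight. Linear sums divided by it estimate 61800000 to 74200000 reads. Since the tables hold log2 values, the plan for counts was not used, and no counting interval is given.

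In R 4.3.3, limma 3.58.1 with a mean-variance trend compared excitatory with inhibitory libraries over 13619 genes reaching 1 in 2 or more libraries; Benjamini-Hochberg adjustment covered all of these, and the threshold was 0.05. No library had a value above 0 for 9583 genes. Symbols were matched to GENCODE M21 (mm10) for 23376 genes (95.7%), for positions, overlaps and exon lengths. Alternatives were other scalings, filters, an added 8 in place of 1, no trend, the replicate number as a block, and each library left out. Named were carriers called the same way in both scalings, paralogs, carriers at 0 in 1 label, those of highest level and the 3 smallest p of every other list; other carriers were added. A carrier and a gene of another list are not reported here by name and not plotted, and both stay in every count. The members and lists were chosen with earlier results of these data known.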

Additional observations from a re-analysis of the deposited data

How the results depend on the processing

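Scaling between libraries changed many calls. Carriers called higher numbered 20 in the deposited values and 11 under both median-of-ratios and upper-quartile scaling, and the other transport genes 18 and 8 (8). The median difference of the carriers was 0.57, 0.03 and 0.05. Under median-of-ratios and upper-quartile scaling the differences reversed for Slc25a5 (-0.08 and -0.06), Slc25a39 (-0.04 and -0.02), Slc25a20 (-0.32 and -0.30), Slc25a46 (-0.12 and -0.10) and Slc25a53 (-0.40 and -0.38). Removing the filter or adding 8 changed no carrier's call, and 4 carriers had no value under the stricter filter. Without the trend Slc25a5, Slc25a18 and Slc25a39 lost their calls.

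No pairing is stated in the labels, and same-numbered libraries did not deviate together (correlation -0.00193). With the replicate block 21 carriers were higher and 8 lower; Slc25a37 (-1.25) lost its call and Slc25a14 (0.71) gained one.

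Leaving out 1 library gave 8 to 14 carriers higher and 5 to 7 lower (3 to 7 and 5 to 8 scaled), 3530 to 4241 of all genes higher and 2310 to 2627 lower (2295 to 2972 and 2730 to 2941 scaled), and 5 to 12 other transport genes higher and 3 to 6 lower (2 to 5 and 4 to 7 scaled). Without 1 library the sign varied for Slc25a20 (-0.16 to 0.61) and Slc25a51 (-0.34 to 0.21), none of them called in the deposited values. Scaled, it varied for Slc25a14 (-0.21 to 0.55), Slc25a18 (-0.08 to 0.13), Slc25a20 (-0.74 to 0.11), Slc25a23 (0.00 to 0.19), Slc25a39 (-0.18 to 0.10), Slc25a4 (-0.03 to 0.08), Slc25a46 (-0.27 to 0.03) and Slc25a5 (-0.18 to 0.03), none of them called after scaling. The scaled runs without 1 library were added after seeing the data.

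Without division by exon length the mean shares in the excitatory and inhibitory libraries were 56.2% and 54.4% for Slc25a4, 43.8% and 45.6% for Slc25a5, 92.5% and 73.3% for Slc25a18, 7.52% and 26.7% for Slc25a22, 95.1% and 80.5% for Slc25a28, 4.96% and 19.5% for Slc25a37, 99.6% and 96.4% for Slc25a14, 0.472% (excitatory) for Slc25a27 and 3.62% (inhibitory) for Slc25a30. The causes of these changes were not tested. A listed 0 was not read as absence, and 2 libraries a label limit every test.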
